A study of Mus musculus with 18 samples.

Results

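Potassium channel genes were taken as the protein-coding mouse genes whose symbol begins with Kcn, followed by letters and a number, and that reached 1 TPM in at least 2 of 18 cochlear RNA libraries. TPM is a transcript abundance per gene length, scaled to the same total in every library. Of 93 protein-coding genes with such a symbol, 49 met this minimum and 44 did not. The 5 matching genes that are not protein-coding are antisense RNAs, the Kcnq1 antisense transcript Kcnq1ot1 among them, and were left out. The members comprised 23 of 40 voltage-gated pore subunits, 6 of 15 inward rectifiers, 4 of 14 two-pore channels, 7 of 8 calcium- or sodium-activated channels and 9 of 16 accessory subunits. Just inside the minimum were Kcnh3, Kcnd3 and Kcnn3, with second-highest values of 1.12, 1.17 and 1.33 TPM. Just outside were Kcnj2 and Kcnq3, with second-highest values of 0.941 and 0.936 TPM.

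Potassium channels let potassium ions cross the cell membrane and so set the resting potential and the speed and shape of voltage changes. Hair cells sense sound by deflection of their bundles. They are bathed at their tips in potassium-rich endolymph, take in potassium when stimulated, and release it through basolateral channels. Kcnma1 and Kcnn2 encode channels known for repolarising mature hair cells or for their inhibitory efferent response, and Kcna10 encodes a shaker-type channel of hair cells. Supporting cells, the epithelial neighbours of hair cells, are known for taking up potassium through inward rectifiers such as Kcnj10 and Kcnj16, while Kcnq1 with Kcne1 secretes potassium into endolymph from the stria vascularis.

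The libraries fall into 9 groups of 2. Native cochlear cells at postnatal day 2 were collected as an Atoh1 sort, read as hair cells because Atoh1 encodes the hair cell transcription factor, and as Lgr5 and Sox2 sorts, read as supporting cells. LCP cultures, read here as Lgr5-positive cochlear progenitors grown as organoids, were sampled on differentiation days 0 and 10 (D0, D10) after sorting, and on D0, D2, D4 and D10 without sorting. The strain, genotype and reporter of each sample, the culture medium of each group and the sort applied to the cultures are not stated by the labels. The labels' protocols describe each sample as the 2 ears of 1 pup, and do not state whether the culture libraries of one replicate number came from 1 culture, so p-values measure the spread between these libraries.

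All values are TPM, which keep no depth, so the counting error is unknown. The number of genes with at least 1 TPM ranged from 14381 to 16713 per library. Replicates correlated at 0.903 to 0.945 across genes on the log2(TPM + 1) scale. The sum of 12 hair cell marker genes was 1719 to 2281 TPM in the Atoh1 sort, but also 685 to 1174 TPM in the Lgr5 sort and 1044 to 1205 TPM in the Sox2 sort, and none of these 12 genes differed between the Atoh1 sort and the other sorts by limma at an adjusted p of 0.05. The labelled native sorts are therefore called by their sort. In sorted LCP cultures the same sum was 28.3 to 34.2 TPM at D0 and 5157 to 6471 TPM at D10. All 12 genes rose. The sum of 11 supporting cell markers was 6490 to 7593 TPM in sorted D10 and 606 to 1465 TPM in sorted D0. It was 1283 to 2092 TPM in the Atoh1 sort, 2095 to 4874 TPM in the Lgr5 sort and 1126 to 2141 TPM in the Sox2 sort. In sorted D10, 7 of the 11 were at or above 1 TPM in both libraries, against 9 in sorted D0. From sorted D0 to D10, 1 of them was called higher and 2 lower, and against the Atoh1 sort 1 higher and 5 lower. Their median log2 differences were -0.11 and -1.84, so most of the 11 genes did not share the larger sum. In unsorted cultures the hair cell marker sum reached 839 TPM in D10 replicate 1 and 3044 TPM in D10 replicate 2. The corresponding D4 libraries had 336 and 1273 TPM. In bulk RNA, fewer cells of a type and less RNA per cell cannot be told apart.

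The 49 genes together made up 461 to 1370 TPM in the 6 native libraries, 175 to 244 TPM in sorted LCP D0 and 1042 to 1509 TPM in sorted LCP D10. The make-up of this sum differed by group. Kcnj13, an inward rectifier of ion-transporting epithelia, was first in all 6 native libraries, with 27.0 to 57.8% of the sum. Kcnk1, a two-pore channel with a weak background current, was first in all 6 unsorted or sorted D0 and D2 libraries, with 30.6 to 58.9%. Kcna10 held 77.1 and 74.0% of the sum in the sorted D10 libraries and 38.2 and 68.1% in the unsorted D10 libraries, against 7.98 to 9.24% in the native ones. Without Kcna10, the sum in sorted D10 was 346 and 271 TPM, below each of the native libraries, where it was 425 to 1254 TPM.

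**Figure D1:**
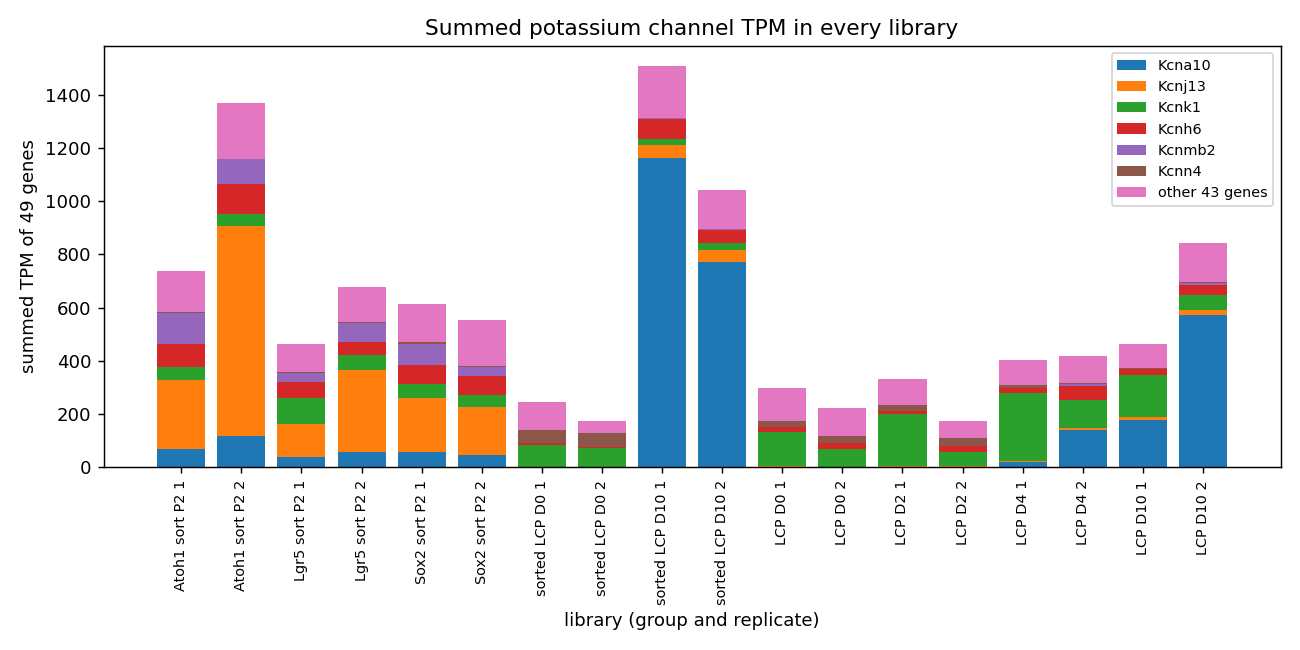
Stacked bars give the TPM of potassium channel genes in each of the 18 libraries (horizontal axis), with 6 genes shown singly and the other 43 summed. Kcnj13 takes the largest coloured section in the native bars, Kcnk1 in the D0 and D2 bars, and Kcna10 1163 and 771 TPM in the sorted D10 bars.

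**Figure D2:**
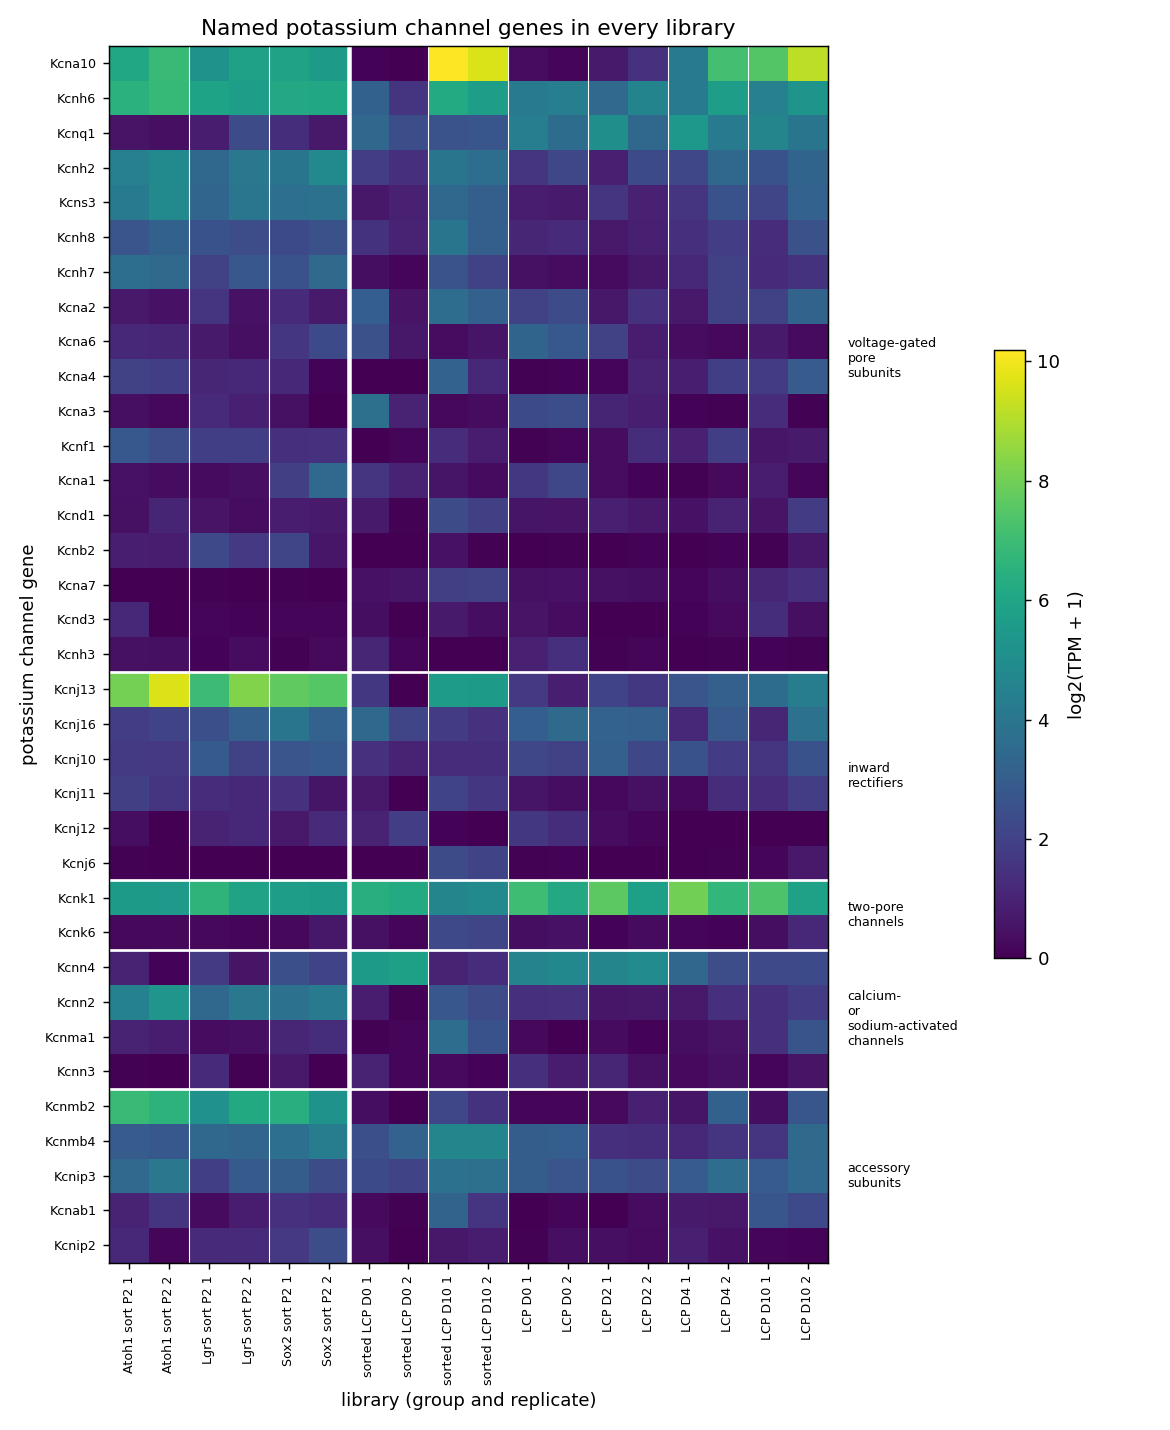
Each row is 1 of the 35 members named in the text, grouped by channel family and ordered by mean level, and each column is 1 library, with the colour giving log2(TPM + 1). Kcna10, Kcnh6, Kcnj13 and Kcnmb2 are bright in the native columns on the left, and of these Kcnj13 and Kcnmb2 are much darker in the sorted D10 columns.

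The comparison of the native sorts asks which channels set hair cells apart from supporting cells at postnatal day 2. No potassium channel gene passed the test between the Atoh1 sort and the average of both other native sorts, where 0.821% of all 20463 tested genes did. Limma with a trend in the spread gave 0 calls, limma without a trend also gave 0, and 13 of the 49 genes had an unadjusted p under 0.05. The largest of these differences was in Kcnip3, a calcium-binding accessory subunit, with 10.2 and 15.8 TPM in the Atoh1 sort, 2.68 and 6.37 in the Lgr5 sort and 6.99 and 4.21 in the Sox2 sort. Its Atoh1 libraries lay above all 4 others, by 1.24 ± 0.35 (SE) on the log2 scale (adjusted p = 0.160). In all, 14 genes (28.6%) were higher in both Atoh1 libraries than in all 4 others, a state that 14.8% of all tested genes showed. A further 6 (12.2%) were lower, against 9.29%. Over the 49 genes the median log2 difference was 0.02, and over all tested genes 0.03.

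Channels known from hair cells were present in all 3 native sorts, with higher values in the Atoh1 sort, none of them called, for Kcna10 and Kcnn2. Kcna10 was at 67.5 and 116 TPM in the Atoh1 sort, 36.8 and 55.6 in the Lgr5 sort and 56.8 and 46.0 in the Sox2 sort. Both Atoh1 libraries lay above the other 4, by 0.87 ± 0.67 on the log2 scale (adjusted p = 0.679). For Kcnn2, a small-conductance calcium-activated channel, the values were 21.5 and 38.2 TPM against 9.76 to 17.5 (1.01 ± 0.36, adjusted p = 0.266). The groups did not overlap for either gene, and the hair cell markers of the 2 other sorts given above move in the same direction, a part in the result that was not tested. Kcnma1, the large-conductance calcium-activated channel, was low, with 0.962 and 0.784 TPM in the Atoh1 sort and 0.251 to 1.51 TPM in the others (0.11 ± 0.35, adjusted p = 0.961).

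Channels known from supporting cells and stria were at 14.3 TPM or less in every native library. Kcnj10 was at 2.33 and 2.23 TPM in the Atoh1 sort, 6.47 and 2.98 in the Lgr5 sort and 5.44 and 6.35 in the Sox2 sort. The Atoh1 libraries were the lowest, by -0.90 ± 0.39 on the log2 scale (adjusted p = 0.385). Its partner subunit Kcnj16 was at 2.62 and 3.17 TPM in the Atoh1 sort against 4.63 to 14.3 TPM (-1.23 ± 0.68, adjusted p = 0.517). Kcnq1 was at 0.456 and 0.333 TPM against 0.604 to 3.99 TPM (-0.80 ± 0.57, adjusted p = 0.639). Kcne1, its accessory subunit in stria, did not reach the minimum and stayed at or under 0.41 TPM in all 18 libraries.

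Between the Lgr5 and Sox2 sorts, 1 channel passed the test, where 0.557% of all genes did. Kcna1, a fast axonal shaker-type channel, was at 0.220 and 0.343 TPM in the Lgr5 sort and 2.78 and 10.3 TPM in the Sox2 sort. It was lower in the Lgr5 sort by -2.35 ± 0.44 on the log2 scale (adjusted p = 0.0397). With the replicate number as a block the adjusted p was 0.058, and the call was lost without 17 of the 18 libraries taken out singly, with adjusted p-values up to 0.201. Summed glial markers moved with this gene, at 446 to 448 TPM in the Lgr5 sort and 1024 to 1480 TPM in the Sox2 sort. Neuron markers were at 88.7 to 174 against 294 to 327 TPM and stria markers at 75.7 to 154 against 417 to 1960 TPM. The tested genes called lower in the Lgr5 sort were 4 of 7 for glia, 2 of 9 for neurons and 1 of 4 for stria, and their part in the result was not tested.

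Sorted LCP cultures at D10 against D0 ask which channels are gained as hair-cell-like cells form. Of the 49 genes, 20 rose and 3 fell. Across all genes 24.0% were called, 13.3% higher and 10.7% lower, against 46.9%, 40.8% and 6.12% of the channel genes. The median log2 difference was 0.98 over the channel genes and 0.02 over all tested genes. Both D10 libraries lay above both D0 libraries for 31 channel genes (63.3%), against 31.6% of all genes, and below them for 12 (24.5%), against 28.8%. By family, 11 of 23 voltage-gated pore subunits rose and 1 fell, 3 of 6 inward rectifiers rose and 1 fell, 1 of 4 two-pore channels rose, 2 of 7 calcium- or sodium-activated channels rose and 1 fell, and 3 of 9 accessory subunits rose. Over the same comparison summed mesenchyme markers were 660 to 1615 TPM at D0 and 48.7 to 63.8 TPM at D10, and their part in these changes was not tested.

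Among voltage-gated pore subunits the largest rise was in Kcna10, which lies on chromosome 3 at chr3:107183056-107195721 (plus strand, mm10). It was at 0.0668 TPM and listed at 0 in the sorted D0 libraries, and at 1163 and 771 TPM at D10. It rose by 9.84 ± 0.77 on the log2 scale (adjusted p = 4.23e-05), a size that depends on the 1 added to TPM because D0 lies near 0. Kcnh6, a channel of the ether-a-go-go-related family that carries a fast-inactivating repolarising current, was at 8.01 and 1.87 TPM at D0 and 73.6 and 49.5 TPM at D10 (3.59 ± 0.58, adjusted p = 0.00122). Of the other genes with the Kcnh prefix, Kcnh2 (2.19 ± 0.55), Kcnh7 (2.04 ± 0.41) and Kcnh8 (2.28 ± 0.43) rose as well, and Kcnh3 was not called (-0.61). Kcnh7 went from 0.289 and 0.125 TPM to 5.16 and 2.99 TPM, and it shares exon sequence with Gca on the opposite strand, at 1.93 to 37.5 TPM. Kcns3, a silent subunit that modifies delayed rectifiers, went from 0.559 and 0.912 TPM to 9.90 and 7.43 TPM (2.47 ± 0.46). Each of the genes given here with TPM values had both D10 libraries above both D0 libraries. Kcna4 (2.18 ± 0.63), Kcnd1 (1.75 ± 0.40) and Kcna7 (1.44 ± 0.20), channels of the shaker and A types, also rose. The one that fell was Kcna3, a shaker-type channel known from lymphocytes, at 12.7 and 1.02 TPM at D0 and 0.153 and 0.282 TPM at D10 (-2.12 ± 0.67, adjusted p = 0.0392).

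Inward rectifiers and two-pore channels moved in both directions. Kcnj13, at chr1:87386363-87394729 (minus strand), was at 2.13 TPM and listed at 0 in sorted D0 and at 47.0 and 45.7 TPM at D10. The rise was 4.74 ± 0.63 on the log2 scale (adjusted p = 0.00041). Its exons overlap those of Gigyf2 on the opposite strand, which was at 14.2 to 56.1 TPM across the 18 libraries, and the library kits in the labels do not mark strand. Kcnj6, a G-protein-activated rectifier, was listed at 0 in both D0 libraries and reached 4.05 and 3.30 TPM at D10 (2.22 ± 0.21). Since it reached 1 TPM in these 2 libraries alone, it met the minimum only through the group where it is high, and its calls for sorted D10 are partly set by that rule. Kcnk6, a two-pore channel, went from 0.374 and 0.147 TPM to 3.76 and 3.34 TPM (1.86 ± 0.27). It reached 1 TPM in 3 libraries, both sorted D10 libraries among them, so it too met the minimum only with that group. Kcnj12, a strong inward rectifier, fell from 0.939 and 2.62 TPM to 0.0583 TPM and a listed 0 (-1.37 ± 0.31, adjusted p = 0.00802). Kcnk1 was at 81.6 and 73.8 TPM at D0 and 24.8 and 27.5 TPM at D10. This difference of -1.54 ± 0.63 did not pass the test (adjusted p = 0.0999), although the groups did not overlap. Kcnj10 was at 1.71 and 0.962 TPM at D0 and 1.46 and 1.55 TPM at D10, which differ by 0.12 ± 0.45 on the log2 scale (adjusted p = 0.900).

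Of the calcium-activated channels, the large-conductance Kcnma1 was at 0.0437 and 0.0929 TPM in sorted D0 and at 11.5 and 4.93 TPM in sorted D10. The rise was 3.01 ± 0.41 on the log2 scale (adjusted p = 0.000453). Kcnn2 went from 0.734 and 0.0307 TPM to 5.78 and 3.98 TPM (2.12 ± 0.41, adjusted p = 0.00351). Kcnn4, an intermediate-conductance channel known from proliferating and secretory cells, did the reverse. It lies at chr7:24370263-24386690 (plus strand) and was at 46.3 and 53.9 TPM at D0 and 0.950 and 1.47 TPM at D10, a fall of 4.54 ± 0.46 on the log2 scale (adjusted p = 9.94e-05). The accessory subunits that rose were Kcnab1 (2.22 ± 0.45), Kcnmb4 (1.83 ± 0.52) and Kcnip3 (1.61 ± 0.41). Kcnmb4, a subunit of the large-conductance channel found mainly in neurons, was at 4.59 and 8.27 TPM at D0 and 24.4 and 24.7 TPM at D10.

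Of the 23 calls, 14 held when any 1 library was left out. The other 9, among them Kcna3, Kcna4, Kcnd1, Kcnh2, Kcnip3, Kcnj11, Kcnj12 and Kcnmb4, were lost without at least 1 library, with highest adjusted p-values from 0.066 to 0.283, and 15 channels were called without sorted D10 replicate 1.

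The sequences upstream of the genes with the largest changes in sorted culture are shown because Kcna10 and Kcnj13 rose together while Kcnn4 fell. They are from RefSeq on GRCm38.p6 and end at the base before the annotated gene. Each is read from 5′ to 3′ on the gene's strand, with capitals marking CAGCTG, an E-box of the kind bound by basic helix-loop-helix factors such as Atoh1. The stretches are chr3:107182893-107183055 (plus strand, 163 bases) for Kcna10, chr1:87394730-87394979 (minus strand, 250 bases) for Kcnj13 and chr7:24370013-24370262 (plus strand, 250 bases) for Kcnn4.
Kcna10: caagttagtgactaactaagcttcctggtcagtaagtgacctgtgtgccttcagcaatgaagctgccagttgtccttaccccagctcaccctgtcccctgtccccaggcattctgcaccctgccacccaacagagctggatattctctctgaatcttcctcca
Kcnj13: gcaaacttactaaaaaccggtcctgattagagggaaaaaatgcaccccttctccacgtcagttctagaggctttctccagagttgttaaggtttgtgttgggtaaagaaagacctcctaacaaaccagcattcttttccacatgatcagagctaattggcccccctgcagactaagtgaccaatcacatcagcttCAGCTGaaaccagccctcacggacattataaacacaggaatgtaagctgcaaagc
Kcnn4: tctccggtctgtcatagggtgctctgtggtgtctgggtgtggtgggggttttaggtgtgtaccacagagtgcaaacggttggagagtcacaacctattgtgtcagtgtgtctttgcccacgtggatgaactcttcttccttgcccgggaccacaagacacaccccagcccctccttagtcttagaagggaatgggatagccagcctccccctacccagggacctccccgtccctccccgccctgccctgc
Motifs were searched on both strands, the palindromes CAGCTG and ATTAAT and the E-box CAGATG, and none shares letters with another in these stretches. The Kcnj13 stretch holds 1 CAGCTG, which begins 55 bases before the gene's start, and the other stretches hold none of these motifs. Among all 32851 windows of 250 bases, 13.0% hold CAGCTG, 14.4% CAGATG and 4.39% ATTAAT. Of the 49 windows of the 34 potassium channel genes with an entry, 8 hold CAGCTG (16.3%), 6 hold CAGATG (12.2%) and 1 holds ATTAAT (2.04%). A match is a description of these letters only.

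Sorted D10 cells against the native Atoh1 sort ask how closely the channels of cultured hair-cell-like cells follow those of native hair cells. In culture 8 channel genes were higher and 5 lower. Of all genes 11.8% were called, 4.51% higher and 7.34% lower, and of the channel genes 26.5%, 16.3% and 10.2%. The medians were 0.02 over the channel genes and -0.11 over all genes. Both culture libraries lay above both Atoh1 libraries for 14 channel genes (28.6%), against 24.9% of all genes, and below them for 21 (42.9%), against 36.0%. The groups share no RNA extraction date, and with the labelled extraction date as a covariate 4 of the 13 calls were left, those of Kcna2, Kcna7, Kcnj6 and Kcnn2.

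The channels that were higher in culture include several that were near 0 in the Atoh1 sort. Kcnj6 was at 0.0345 TPM and listed at 0 in the Atoh1 libraries and at 4.05 and 3.30 TPM in sorted D10 (2.20 ± 0.21, adjusted p = 7.73e-05), the libraries that admitted it. Kcna7, a shaker-type channel, was at 0.0196 and 0.00545 TPM against 2.83 and 3.03 TPM (1.96 ± 0.20, adjusted p = 0.000121). Kcnk6, which also met the minimum only with the sorted D10 libraries, was at 0.167 and 0.176 TPM against 3.76 and 3.34 TPM (1.96 ± 0.27). None of these genes overlapped between the groups. Kcnma1 was 2.20 ± 0.41 higher on the log2 scale in culture, with 11.5 and 4.93 TPM there against 0.962 and 0.784 TPM. Its accessory subunit Kcnmb4 was at 24.4 and 24.7 TPM against 6.82 and 5.91 TPM (1.80 ± 0.52, adjusted p = 0.0425). Kcna2, a shaker-type channel of axons, was at 11.4 and 7.80 TPM against 0.608 and 0.402 TPM (2.80 ± 0.75, adjusted p = 0.0318). Of 10 neuron markers 3 were at or above 1 TPM in both sorted D10 libraries, Prph and Gap43 were listed at 0 in both, and the sum was 218 to 313 TPM there against 246 to 288 TPM in the Atoh1 sort. Summed markers of other cells were lower in sorted D10, at 0.352 to 0.712 against 193 to 281 TPM for erythroid cells, 48.7 to 63.8 against 171 to 272 TPM for mesenchyme and 95.2 to 108 against 285 to 417 TPM for glia. Called lower were 4 of 5 erythroid, 4 of 7 mesenchyme and 3 of 7 glia genes tested, and their part in the channel differences was not tested. Kcnd1, a transient A-type channel, was 1.39 ± 0.40 higher.

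Kcna10 was at 1163 and 771 TPM in sorted D10 against 67.5 and 116 TPM in the Atoh1 sort, higher by 3.40 ± 0.77 on the log2 scale (adjusted p = 0.0148). The call was lost when either library of either group was left out, with adjusted p-values up to 0.102.

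Of the channels that were lower in culture, Kcnj13 and Kcnmb2 are among the most abundant of the native sorts, while Kcnf1 peaked at 5.94 TPM over the 18 libraries. Kcnmb2, an accessory subunit that inactivates large-conductance channels, was at 116 and 95.2 TPM in the Atoh1 sort, 35.0 to 82.0 TPM in the other native sorts, and 3.51 and 1.79 TPM in sorted D10. It was lower in culture by -4.90 ± 0.85 (adjusted p = 0.00346). Kcnj13 was at 262 and 792 TPM against 47.0 and 45.7 TPM (-3.27 ± 0.63, adjusted p = 0.00644). For Kcnn2 the Atoh1 values were 21.5 and 38.2 TPM and the culture values 5.78 and 3.98 TPM (-2.35 ± 0.41, adjusted p = 0.00383). Kcnf1, a silent subunit, was lower by -1.56 ± 0.38 (adjusted p = 0.0214). In these 4 genes both culture libraries lay below both Atoh1 libraries. Without Atoh1 replicate 2 the adjusted p was 0.0682 for Kcnj13. Of the 13 calls 6 held when any 1 library was left out, and 7 channels were called without Atoh1 replicate 2 and 8 without sorted D10 replicate 1.

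**Figure D3:**
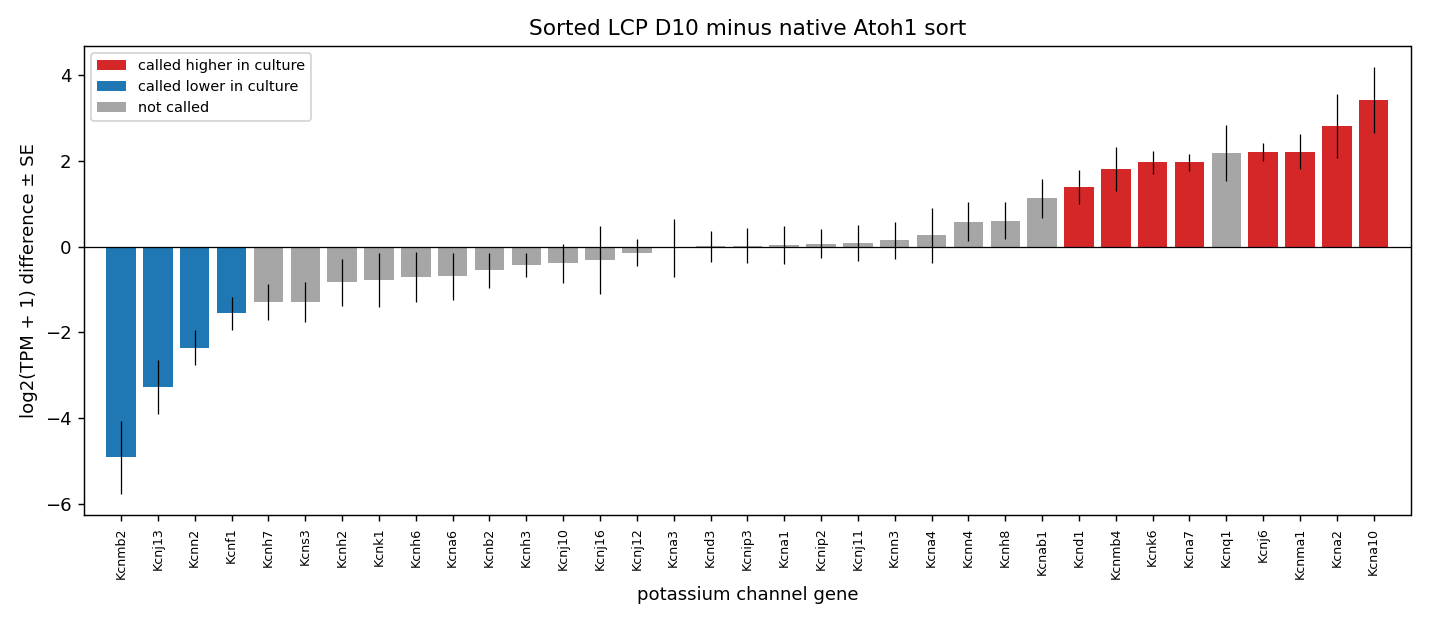
Bars give the log2(TPM + 1) difference of sorted LCP D10 minus the native Atoh1 sort for each of the 35 members named in the text, with the SE of the fit, ordered by value. Red bars (8 genes) and blue bars (4 genes) passed the test, and Kcnmb2 at -4.90 and Kcna10 at 3.40 are the ends of the range.

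Sorted D0 cells against the Lgr5 and Sox2 sorts ask how the channels of expanded progenitors differ from those of these native sorts. In culture 16 channel genes were lower and 1 was higher, with 34.7% of the channel genes called against 17.2% of all genes. Lower calls made up 32.7% of the channel genes and 11.4% of all genes, and higher calls 2.04% and 5.74%. The median was -0.69 over the channel genes and -0.15 over all genes. The largest differences were in genes abundant in the native sorts. Kcnj13, at 125 and 309 TPM in the Lgr5 sort and 204 and 181 TPM in the Sox2 sort, was at 2.13 TPM and listed at 0 in sorted D0 (-6.79 ± 0.54, adjusted p = 1.74e-05). Kcna10 (-5.57 ± 0.67), Kcnmb2 (-5.55 ± 0.73), Kcnh6 (-3.61 ± 0.50) and Kcnn2 (-3.46 ± 0.36) followed. The delayed-rectifier and repolarising subunits Kcns3, Kcnh7, Kcnh2, Kcnb2 and Kcnf1 were lower by -1.60 to -2.93. Kcnb2 reached 1 TPM in 3 libraries and met the minimum only through the Lgr5 and Sox2 sorts, so its call is partly set by that rule. Kcnip2, an accessory subunit of A-type channels, was lower by -1.43 ± 0.30. Kcnj10 was at 1.71 and 0.962 TPM in sorted D0, below all 4 Lgr5 and Sox2 libraries at 2.98 to 6.47 TPM, and lower by -1.41 ± 0.39 (adjusted p = 0.0284). The one channel higher in culture was Kcnn4, at 46.3 and 53.9 TPM against 0.463 to 4.57 TPM (3.98 ± 0.39, adjusted p = 5.71e-05).

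Hair cell markers move with these genes, at 28.3 to 34.2 TPM in sorted D0 and 685 to 1205 TPM in the Lgr5 and Sox2 sorts. Of the marker genes tested, 11 of 12 of hair cells, 7 of 9 of neurons, 5 of 7 of glia and 3 of 4 of stria were also lower in sorted D0, and their part in the result was not tested. With the extraction date as a covariate the adjusted p was 0.0745 for Kcnb2 and 0.213 for Kcnj10, and 14 channels were called in all. A fit of the compared groups alone gave 0.109 for Kcnb2, 0.0987 for Kcnj10 and 0.0619 for Kcnip2. Of the 17 calls 10 held when any 1 library was left out. Kcnj10 lost its call without Lgr5 replicate 1, Sox2 replicate 2 or either sorted D0 library, with adjusted p-values up to 0.203, and with trimmed-mean scaling 4 channels were higher and 15 lower.

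Unsorted cultures were compared with their D0 libraries at each later day. At D2 against D0 no channel passed the test with limma, with or without a trend, where 0.0489% of all genes did, and 6 channels had an unadjusted p under 0.05. At D4, 2 channels were higher and 3 lower, with 10.2% of the channel genes called against 3.39% of all genes, 1.09% of them higher and 2.29% lower. At D10, 7 were higher and 4 lower, with 22.4% called against 7.39%. Of all genes 3.05% were higher and 4.34% lower at D10. Kcna10 was at 0.269 and 0.133 TPM at D0, 0.657 and 1.77 at D2, 17.7 and 138 at D4, and 177 and 573 at D10. Its log2 difference from D0 was 0.84 ± 0.77 at D2 (adjusted p = 1.00), 5.41 ± 0.77 at D4 (adjusted p = 0.00317) and 8.06 ± 0.77 at D10 (adjusted p = 0.000165). Replicates differed widely at D4 and D10, and replicate 1, with the lower Kcna10, also had the lower hair cell marker sum at both times.

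Kcnj13 was at 2.19 and 0.799 TPM at D0 and 11.1 and 18.8 TPM at D10 (2.69 ± 0.63, adjusted p = 0.0234). Kcnab1, an accessory subunit of shaker-type channels, rose from 0.00279 and 0.124 TPM to 5.55 and 3.78 TPM (2.40 ± 0.45). Kcns3 (1.88 ± 0.46), Kcnma1 (1.88 ± 0.41) and Kcna7 (0.77 ± 0.20) also rose by D10. Kcna6, a shaker-type channel, fell from 8.65 and 6.03 TPM to 0.263 and 0.157 TPM at D4 and 0.658 and 0.233 TPM at D10, by 2.77 ± 0.55 and 2.53 ± 0.55 on the log2 scale. Kcnj12 fell by 1.47 ± 0.31 and 1.48 ± 0.31. Kcnh3 fell by 1.15 ± 0.28 and 1.09 ± 0.28 from 0.936 and 1.63 TPM, and its exons overlap those of the abundant Mcrs1 on the opposite strand. Kcnh3 reached 1 TPM in 2 libraries, D0 replicate 2 among them. It thus met the minimum only with the unsorted D0 group, and these calls are partly set by that rule. Kcnn4 fell at D10, from 22.4 and 26.1 TPM to 3.80 and 3.93 TPM (-2.37 ± 0.46).

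Kcna10 was the only channel of these 2 comparisons whose call held without any 1 library. Without D0 replicate 1 it was the only call at D10, and 3 channels were called without D0 replicate 2 or without D10 replicate 2. At D4, 1 channel was called without either D0 library or without D4 replicate 2, and 3 without D4 replicate 1. When the 2 groups were fitted alone no channel was called in either comparison.

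**Figure D4:**
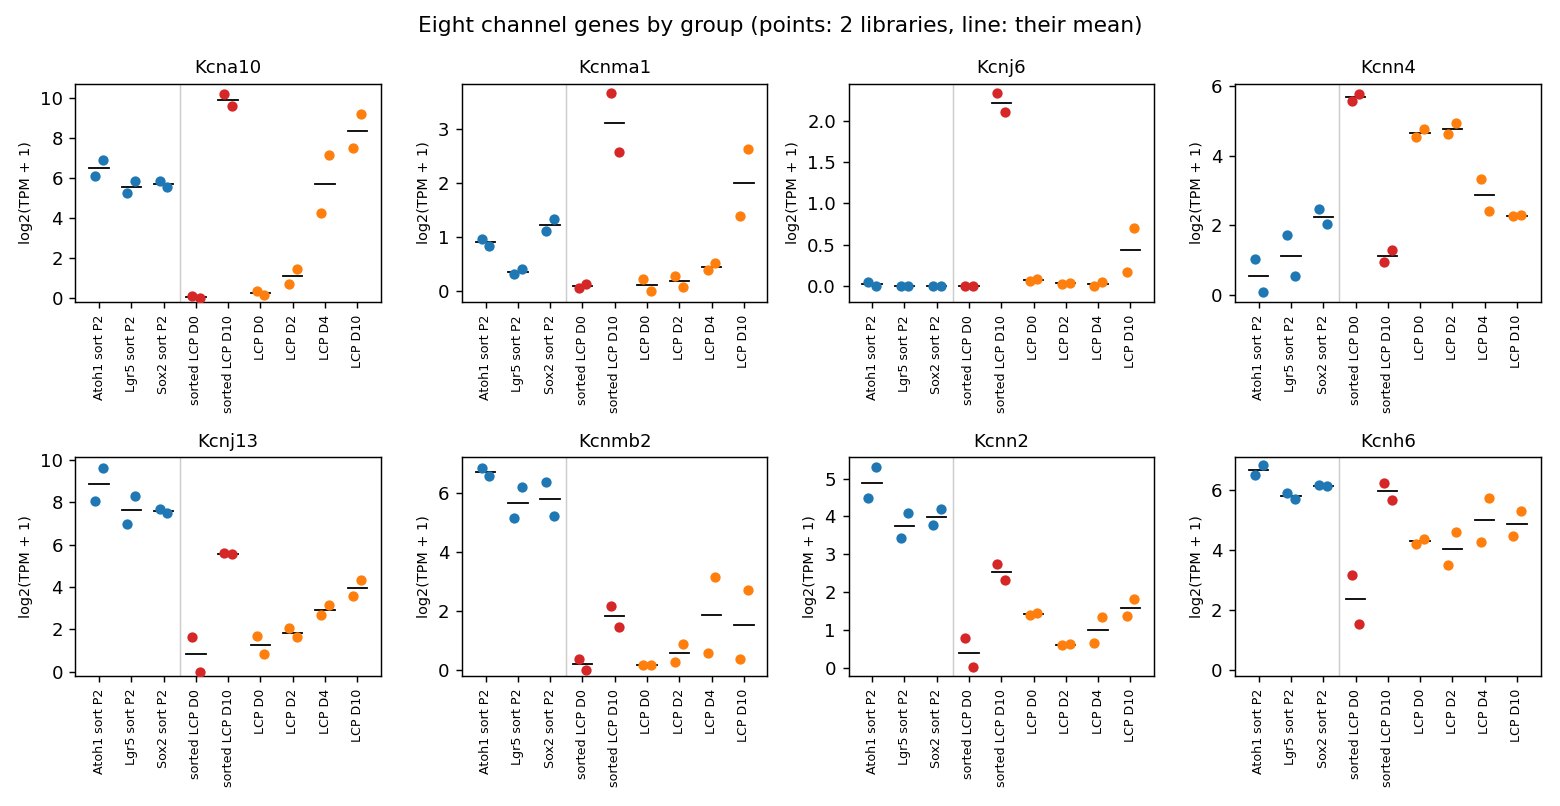
Points are the 2 libraries of each of the 9 groups and lines their means on the log2(TPM + 1) scale, with native sorts in blue, sorted cultures in red and unsorted cultures in orange, and with a different vertical range in each panel. By their means, Kcna10, Kcnma1 and Kcnj6 lie highest in sorted D10, Kcnn4 in sorted D0, and Kcnj13, Kcnmb2 and Kcnn2 in the native sorts. For Kcnma1 the point of unsorted D10 replicate 2, at 5.19 TPM, lies between the sorted D10 points at 11.5 and 4.93 TPM. Kcnh6 lies highest in the Atoh1 sort, and its sorted D10 points overlap those of the Lgr5 and Sox2 sorts.

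Sorting at D10 compares sorted with unsorted cultures. Here 4 channel genes were higher in the sorted libraries and none lower, 8.16% of the channel genes against 6.22% of all genes. Of all genes 4.29% were higher and 1.94% lower. Kcnj6 was at 4.05 and 3.30 TPM in sorted and 0.119 and 0.626 TPM in unsorted D10 (1.79 ± 0.21, adjusted p = 0.00169). Kcnmb4 was at 24.4 and 24.7 TPM against 1.87 and 10.5 TPM (2.15 ± 0.52, adjusted p = 0.0326). Kcnh8 (1.61 ± 0.43) and Kcnk6 (1.42 ± 0.27) were the others. Kcnj6 and Kcnk6 met the minimum only with the sorted D10 libraries, so their calls are partly set by that rule. The values of Kcna10, 1163 and 771 TPM against 177 and 573 TPM, did not overlap, and the difference of 1.57 ± 0.77 did not pass the test (adjusted p = 0.240). Kcnj6 alone held its call without any 1 library and with the extraction date as a covariate, and 8 channels were called without unsorted D10 replicate 2 and 1 without any of the other D10 libraries. The hair cell marker sum was 5157 to 6471 TPM in sorted and 839 to 3044 TPM in unsorted D10, and its part in these differences was not tested.

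Setting the sorted culture change from D0 to D10 beside the native difference between the Atoh1 sort and the other sorts asks which channels change more in culture. Over the 49 genes the 2 differences had the same sign in 37, above 0 in 23 and below 0 in 14, and opposite signs in 12. Pearson's r across these genes was 0.63 and Spearman's rho 0.68, a description over genes that share 5 groups of libraries and no library between the 2 differences. The culture change was larger by a test of the difference itself in 8 genes, and lower in 1, which is 18.4% of the channel genes against 7.46% of all genes, where 4.42% were higher and 3.04% lower. Between the sorted and the unsorted culture change, 1 channel differed (Kcnj6, 1.85 ± 0.29 larger with sorting, adjusted p = 0.0368), where 0.205% of all genes did. Kcna10 changed by 9.84 in culture and 0.87 between native sorts, a difference of 8.97 ± 1.02 (adjusted p = 0.00112). Kcnma1 changed by 3.01 and 0.11, a difference of 2.90 ± 0.54 (adjusted p = 0.00969). Kcnj13, Kcnh6, Kcnmb4, Kcnj6, Kcnk6 and Kcna7 had differences of 1.46 to 3.52, and Kcnn4 one of -3.40 ± 0.60. Of these, Kcnj6 and Kcnk6 met the minimum only with the sorted D10 libraries. For the 12 hair cell markers the same test called all 12 higher in culture. Of the 9 channel calls, those of Kcnj13, Kcnh6 and Kcnmb4 were lost without at least 1 library, with adjusted p-values up to 0.154. With the extraction date as a covariate the adjusted p was 0.0605 for Kcnma1 and 0.118 for Kcnmb4, and a fit of the compared groups alone gave 0.0616 for Kcnj13.

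**Figure D5:**
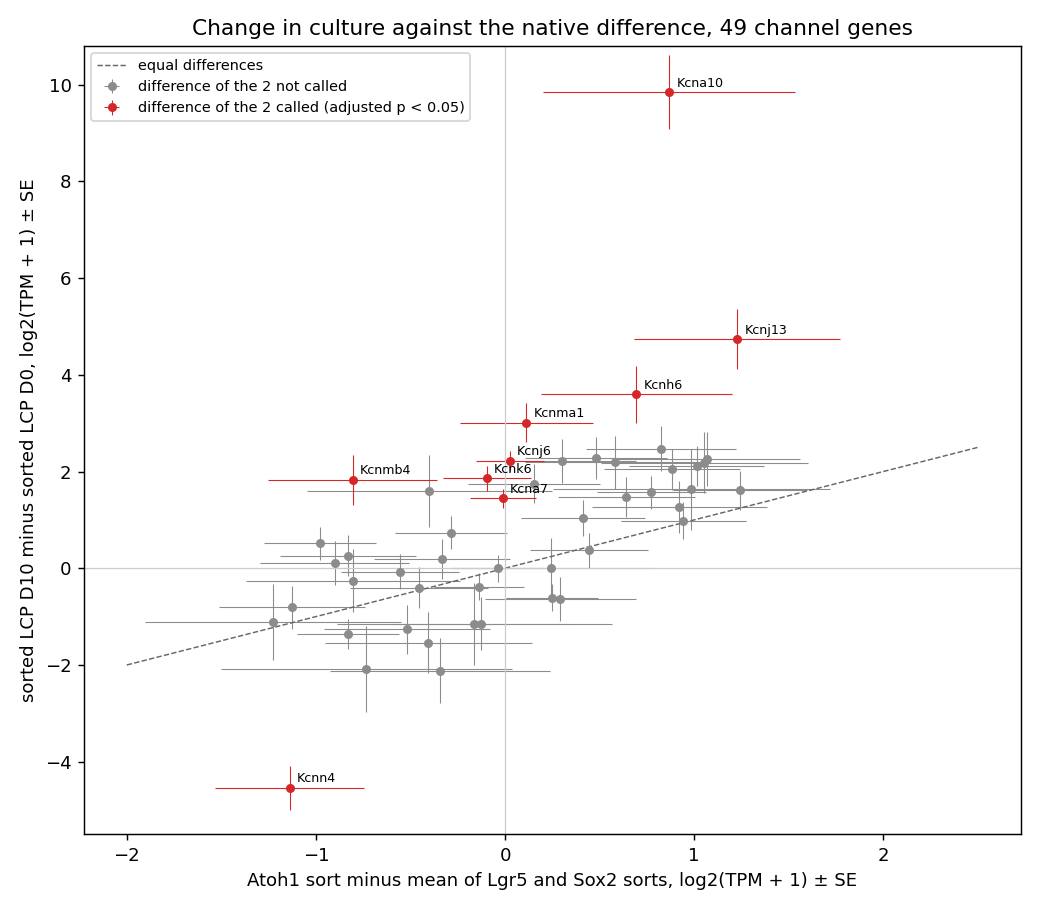
Each point is 1 of the 49 genes, with the difference of the Atoh1 sort from the other native sorts on the horizontal axis and the change from sorted D0 to sorted D10 on the vertical axis, both on the log2(TPM + 1) scale with SE bars. Red points (9 genes) differ between the axes by the test of the difference, and the dashed line marks equal differences. Kcna10 lies at 0.87 and 9.84.

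Channels were also listed by the cell type they are known from, and no test compared the lists. Of 6 hair cell channels 5 were tested, and all 5, Kcna10, Kcnma1 and Kcnn2 among them, rose from sorted D0 to D10, where 13.3% of all genes did. Against the Atoh1 sort, Kcna10 and Kcnma1 were higher in sorted D10 and Kcnn2 was lower. Kcnj2, the inward rectifier of this list, did not reach the minimum and was highest in sorted D10 replicate 1, at 2.30 TPM. Of the 4 supporting cell and stria channels 3 were tested, and none was called from sorted D0 to D10, where 24.0% of all genes were. Kcnj16 had a difference of -1.11 ± 0.78 (adjusted p = 0.333) and Kcnq1 one of -0.25 ± 0.65 (adjusted p = 0.832). Kcnq1 was at 5.10 and 5.53 TPM in sorted D10 and 0.456 and 0.333 TPM in the Atoh1 sort, without overlap, and the difference of 2.18 ± 0.65 lay just outside the threshold (adjusted p = 0.0503). Of 9 neuron and glia channels 4 were tested, and none was called from sorted D0 to D10.

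Other genes of potassium handling comprise the sodium-potassium pump, potassium-chloride transport, hyperpolarisation-activated channels and partners of channel complexes. Of 26 such genes 20 were tested, and 5 rose and none fell from sorted D0 to D10, where 13.3% of all genes rose and 10.7% fell. Their median log2 difference was 0.54, against 0.02 over all genes. Abcc8, the sulfonylurea receptor that joins the Kcnj11 pore, was at 0.53 TPM and listed at 0 at D0 and at 12.4 and 6.41 TPM at D10 (3.01 ± 0.55, adjusted p = 0.00252). Kcnj11 itself went from 0.635 TPM and a listed 0 to 3.09 and 2.07 TPM (1.47 ± 0.42, adjusted p = 0.0243). The hyperpolarisation-activated channels Hcn3 (2.12 ± 0.44) and Hcn2 (1.45 ± 0.48) rose as well, and the pump subunit Atp1b1 went from 130 and 56.5 TPM to 400.2 and 315 TPM (2.04 ± 0.43). Between the native sorts none of the 20 was called, at a background of 0.821%. Against the Atoh1 sort, 1 of the 20 was called higher in sorted D10 and 2 lower, where 4.51% of all genes were higher and 7.34% lower. Slc12a2, a sodium-potassium-chloride cotransporter, was lower in sorted D10 than in the Atoh1 sort by -1.35 ± 0.38.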

How the data were processed

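RNA was measured in 18 mouse cochlear libraries, which per the labels' protocols were amplified with a SMARTer V4 kit and made with a ThruPLEX kit, neither of which marks strand. The authors deposited 1 TPM value per gene and library, with a total of 1000000 in each. Per the submitters' processing notes the mouse build was mm10, and Salmon, STAR, DESeq2 and FastQC are listed with neither version nor role. Their annotation is not stated. TPM keeps no depth, and a gain in a few abundant genes lowers all others. Groups and replicate numbers come from the sample titles. The labels also describe tamoxifen treatment of mice with a beta-catenin allele, which no sample title mentions.

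Names, biotypes and coordinates are from GENCODE M21, and 47224 of 47729 identifiers had a name. The 20463 genes at 1 TPM or more in 2 or more libraries were tested on log2(TPM + 1), which understates changes of low genes. One limma 3.58.1 fit with a trend (R 4.3.3) held all 18 libraries, with 9 residual and 2.80 prior degrees of freedom. P-values are two-sided and were adjusted by the Benjamini-Hochberg method over all tested genes in each of 11 comparisons, with a threshold of 0.05. Groups at 0 add no spread to the shared estimate, so genes listed at 0 in many groups can pass with a small SE. The fit was tested on simulated data. Figures and tables used Python 3.11.15, pandas 2.3.3, numpy 2.4.6 and matplotlib 3.10.9. Trimmed-mean scaling factors were computed in R on the TPM values.

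The members and the 14 gene lists were chosen with earlier results of these data known. Named genes are the members past the threshold in a comparison (all where there are at most 12, otherwise the 12 with the largest differences), the tested members of the hair cell and supporting cell channel lists, the 5 most abundant members and the called genes of potassium handling. Other channels, such as Kcnip3, Kcnh2, Kcnh7, Kcnh8, Kcnj11, Kcnj2 and Kcne1 and those listed for lost calls, and the potassium handling genes called against the Atoh1 sort, were named after their values were seen. A few called genes enter the totals but are not reported here by name.

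The labels give 3 sequencing dates and 5 RNA extraction dates, some extraction dates later than the sequencing date of the same library. All replicate 2 libraries share 1 sequencing date, and same-numbered culture libraries share an extraction date within the sorted and within the unsorted cultures. Deviations of same-numbered libraries correlated at -0.02 to 0.48 over 36 pairs of groups, above 0.1 in 18. Alternatives were other pseudocounts, filters, scaling, the replicate block, both dates as covariates, a fit of the compared groups alone, no trend, and leaving out each library. Fits without a library, and those of the compared groups alone, kept the genes chosen with all 18 libraries.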

Additional observations from a re-analysis of the deposited data

Results flagged for a closer look

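For 9 channel genes the change from sorted LCP D0 to D10 differed from the difference between the native Atoh1 sort and the other native sorts, by a test of the difference itself on the log2(TPM + 1) scale. The values were 8.97 for Kcna10, 3.52 for Kcnj13, 2.90 for Kcnh6, 2.90 for Kcnma1, 2.63 for Kcnmb4, 2.20 for Kcnj6, 1.95 for Kcnk6, 1.46 for Kcna7 and -3.40 for Kcnn4. Kcnj6 was also set apart by the test of the sorted against the unsorted change from D0 to D10, with a value of 1.85 and an adjusted p of 0.0368. It met the minimum for inclusion only through its 2 sorted D10 libraries, so this value is not independent of that choice. The 1.95 of Kcnk6 has the same limit, since that gene met the minimum only with the sorted D10 libraries. The sorted D0 libraries of Kcnj6 were both listed at 0. Its unsorted libraries lay between 0.0373 and 0.626 TPM at D0 and D10. That call was lost when any of 12 libraries was left out, with adjusted p-values up to 0.125.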

How the results depend on the processing

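Kcna10, Kcnj6, Kcnma1, Kcna7, Kcnk6, Kcnn4 and 8 other calls of the sorted D10 against D0 comparison held without any 1 library. Leaving out 1 library gave 15 to 24 called channels there, 7 to 13 for sorted D10 against the Atoh1 sort, 13 to 17 for sorted D0 against the Lgr5 and Sox2 sorts, 1 to 8 for sorted against unsorted D10, 6 to 11 for the culture change against the native difference, 0 to 3 for the sorted against the unsorted change, 1 to 13 for D10, 1 to 7 for D4 and 0 for D2 against D0, 0 to 1 between the native Atoh1 and other sorts, and 0 to 1 for Lgr5 against Sox2. A fit of only the compared groups called 12 for sorted D10 against D0, and 0 for D10 and D4 against D0, sorted against unsorted D10, Lgr5 against Sox2 and the sorted against the unsorted change, with fewer samples for the spread. A minimum of 5 TPM, which leaves fewer channels to test, called 3 at D4, 11 for sorted D0 against the native sorts, 1 for sorted against unsorted D10, and 0 for Lgr5 against Sox2 and for the sorted against the unsorted change. With the extraction date, 4 were called against the Atoh1 sort, 1 for sorted against unsorted D10 and 0 for Lgr5 against Sox2 and the sorted against the unsorted change. With the sequencing date, 8 were called at D4 and 0 in each of those last 2 comparisons. A pseudocount of 0.1 called 1 for sorted against unsorted D10, and the pseudocounts 0.1 and 0.5 called 0 in the same last 2 comparisons. Lgr5 against Sox2 also had 0 calls without a filter and with the replicate block, which moved no other count by over 1.5 times. For these the cause was not tested unless stated. Trimmed-mean scaling moved the median of all genes by 0.13 for sorted D0 against the native sorts, 0.12 for sorted D10 against the Atoh1 sort and -0.10 for the sorted against the unsorted change. With the extraction date the uncalled differences from the Atoh1 sort changed sign for Kcnh6 (0.12), Kcnj10 (0.050) and Kcnj16 (0.26). From sorted D0 to D10, Kcnj10 ranged from -0.11 without sorted D0 replicate 2 to 0.35 without replicate 1, and Kcnq1 from -0.72 without sorted D0 replicate 2 to 0.21 without replicate 1. Depth is unknown in TPM, so values near 0 have no stated precision.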

Other observations

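Channel levels can also be set against the 12 hair cell markers of the same library, as TPM of the channel per 100 TPM of the summed markers. This is a ratio within a library and shows unequal change, with no test. Kcna10 was at 3.81 to 5.44 in the 6 native libraries, 5.27 and 10.9 in unsorted D4 and 18.8 to 21.0 in unsorted D10. The lower of the sorted D10 libraries was at 15.0. Its D10 ratios in sorted and unsorted cultures thus lay between 15.0 and 21.0. The levels of Kcna10 in the same libraries were 1163 and 771 TPM in sorted and 177 and 573 TPM in unsorted D10. The part of hair cell content in these levels was not tested. Kcnj13 was at 15.0 to 34.7 in the native libraries and 0.619 to 1.32 in the D10 libraries. Kcnmb2 was at 3.04 to 7.86 against 0.0346 to 0.183, Kcnn2 at 1.22 to 1.68 against 0.0771 to 0.190, and Kcnh6 at 4.25 to 8.56 against 0.960 to 2.47. For these 4 genes the native and the D10 ranges did not overlap. The marker sum was 5157 to 6471 TPM in sorted D10 and 1719 to 2281 TPM in the Atoh1 sort. Of the 12 markers 2 were called higher in sorted D10, with a median log2 difference of 0.18. The sum thus differed more than the typical marker, and a lower ratio alone does not show less channel RNA per hair cell. Kcnh6 itself was not called against the Atoh1 sort (-0.71), while Kcnj13, Kcnmb2 and Kcnn2 were called lower.

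Within the native libraries, the ratios of Kcna10 and Kcnn2 spanned less than the levels themselves, and the Atoh1 sort lay inside the range of the Lgr5 and Sox2 sorts for Kcna10. The Atoh1 values were 3.93 and 5.10, the Lgr5 values 5.37 and 4.74 and the Sox2 values 5.44 and 3.81. For Kcnn2 the Atoh1 values were 1.25 and 1.68, the Lgr5 values 1.42 and 1.37 and the Sox2 values 1.22 and 1.45.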
